A study of Mus musculus with 67 samples.

Results

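The genes described here are the 3 D-type cyclins (Ccnd1, Ccnd2 and Ccnd3), their partner kinases Cdk4 and Cdk6, the kinase inhibitors Cdkn1a, Cdkn1b and Cdkn2c, the pocket protein gene Rb1 and the MYC family gene Mycn. They were chosen by name, with earlier results of these data known, as 10 of the 46983 gene IDs that each expression table lists. Each matched a single ID. RNA was sequenced from forelimb buds of mouse embryos before and after the onset of Hedgehog (HH) signaling, with and without Gli3, which encodes a transcription factor that acts mainly as a repressor of HH target genes in the limb. The comparison asked which genes depend on Gli3 at each stage.

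The 14 libraries form 4 groups. The pre-HH groups were whole forelimb buds at E9.25 (21 to 23 somites), with 3 WT and 4 Gli3-/- libraries of 4 pairs of buds each. The post-HH groups were anterior forelimb buds at E10.5 (32 to 35 somites), with 4 WT and 3 Gli3-/- libraries of 2 pairs each. All embryos were Swiss Webster mice, and the Gli3-/- embryos carried the Xt-J allele, an inherited deletion of part of Gli3 present in every cell of the embryo. Each library pooled the buds of several embryos, so that the spread between libraries is that between pools. Because the E9.25 buds were whole and the E10.5 buds were anterior parts, stage and part of the bud cannot be told apart.

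D-type cyclins bind and activate CDK4 and CDK6, and the active kinases phosphorylate the RB1 protein in the G1 phase of the cell cycle. Phosphorylated RB1 releases E2F factors, which switch on the genes of DNA replication. Inhibitors of the INK4 family, such as p18 (Cdkn2c), bind CDK4 and CDK6, and inhibitors of the CIP/KIP family, such as p21 (Cdkn1a) and p27 (Cdkn1b), bind cyclin and kinase complexes more widely. Ccnd1, Ccnd2 and Mycn are known as HH responsive genes in some tissues, and D-type cyclins link growth signals to division in the limb bud.

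Expression is given as TPM, the relative number of transcripts of a gene after division by transcript length, which sums to the same total in each library, so that levels of different genes can be set side by side. By estimate, 38.1 to 56.8 M reads were sequenced per library, so that 20.7 to 29.3 reads per kilobase stand behind a level of 1 TPM. The targeted gene was checked first. Gli3 stood at 44.2, 15.8 and 44.6 TPM in E9.25 WT and at 14.3 to 20.8 TPM in E9.25 Gli3-/-, so that the library labelled E9.25 WT replicate 2 lay within the range of the mutants. At E10.5 Gli3 stood at 73.4 to 89.7 TPM in WT and at 38.7 to 40.9 TPM in Gli3-/-. The ratio of the coverage of Gli3 to the coverage that its TPM would give in a gene with 1 transcript did not overlap between genotypes, at 0.34 in each of the 7 WT libraries, replicate 2 of E9.25 included, and at 0.12 to 0.14 in the 7 Gli3-/- libraries. Ptch1, a HH target gene, stood at 2.48 to 8.08 TPM in E9.25 WT, 21.4 to 38.5 TPM in E9.25 Gli3-/-, 9.54 to 11.7 TPM in E10.5 WT and 28.7 to 38.3 TPM in E10.5 Gli3-/-. E9.25 WT replicate 2 also held lower values of genes that span at least 100 kb, with a median difference from the mean of the other 2 libraries of its group of -0.51 log2 units against -0.20 for all genes. Cdk6 spans 189.5 kb and Rb1 142.2 kb, so that some of their values are also given without it. The markers of limb bud mesenchyme, such as Prrx1 and Tbx5, were above 1 TPM in every library for 8 of 8 genes.

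Reference sequence from RefSeq (GRCm38.p6) was available for 10 start sites of 7 of the 10 genes, as windows of 250 bases before and 50 bases after the start. The sequences for Ccnd1, Ccnd2 and Rb1 were not used here. The windows were searched on both strands for GACCACCCA, the consensus of GLI factors, for TTTCGCGC, TTTGGCGC, TTTCCCGC and TTTGCCGC, forms of the E2F consensus, and for CACGTG, the E-box bound by MYC and MAX. The GLI letters were in 0 of the 10 windows and in 0.253% of 32851 windows of all genes. The E2F letters were in 1 window, that of Mycn, against 2.26% of all windows. The E-box letters were in 3 windows, of Cdk4, Cdk6 and Cdkn2c, against 7.15% of all windows. The sequences before the start are printed for Cdk6 and Cdkn1a, which were both higher in E10.5 Gli3-/- buds, for Cdk4, whose level did not follow that of Cdk6, and for Mycn, with the matches in capitals. The sequence of Cdk6 and the second of Cdkn1a lie inside the span that the expression tables give the gene, and that of Mycn stops where that span begins.
Cdk6, chr5:3343643-3343892, plus strand: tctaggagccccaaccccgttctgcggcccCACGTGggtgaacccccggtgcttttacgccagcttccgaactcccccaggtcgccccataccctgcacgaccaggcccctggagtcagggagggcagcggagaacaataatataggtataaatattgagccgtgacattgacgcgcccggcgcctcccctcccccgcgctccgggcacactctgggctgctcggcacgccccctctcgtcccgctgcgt
Cdkn1a, chr17:29090729-29090978, plus strand: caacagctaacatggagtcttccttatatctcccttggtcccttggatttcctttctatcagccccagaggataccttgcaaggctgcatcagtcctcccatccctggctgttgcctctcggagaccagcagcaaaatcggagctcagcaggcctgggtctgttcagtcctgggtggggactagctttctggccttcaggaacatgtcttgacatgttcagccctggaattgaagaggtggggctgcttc
Cdkn1a, chr17:29093519-29093768, plus strand: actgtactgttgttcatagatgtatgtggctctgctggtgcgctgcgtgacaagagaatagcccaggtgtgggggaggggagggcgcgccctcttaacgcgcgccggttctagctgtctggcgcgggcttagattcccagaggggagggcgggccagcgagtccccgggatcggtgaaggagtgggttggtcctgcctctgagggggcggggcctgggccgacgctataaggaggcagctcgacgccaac
Cdk4, chr10:127063285-127063533, plus strand: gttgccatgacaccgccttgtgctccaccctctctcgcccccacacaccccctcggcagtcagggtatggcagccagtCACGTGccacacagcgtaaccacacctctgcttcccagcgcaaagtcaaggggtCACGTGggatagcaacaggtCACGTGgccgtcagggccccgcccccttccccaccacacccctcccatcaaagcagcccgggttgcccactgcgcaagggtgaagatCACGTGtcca
Mycn, chr12:12941915-12942086, minus strand: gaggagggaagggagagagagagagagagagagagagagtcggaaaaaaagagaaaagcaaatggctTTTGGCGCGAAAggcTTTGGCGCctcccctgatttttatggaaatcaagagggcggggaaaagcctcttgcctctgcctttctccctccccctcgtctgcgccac
The Cdk4 sequence held 4 E-boxes, beginning 172, 118, 98 and 11 bases before the start, and the Cdk6 sequence held 1, beginning 220 bases before it. The 3 E2F matches of Mycn began 183, 179 and 168 bases before the start, and the first 2 overlap each other. These matches describe the letters and do not show binding.

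**Figure D1:**
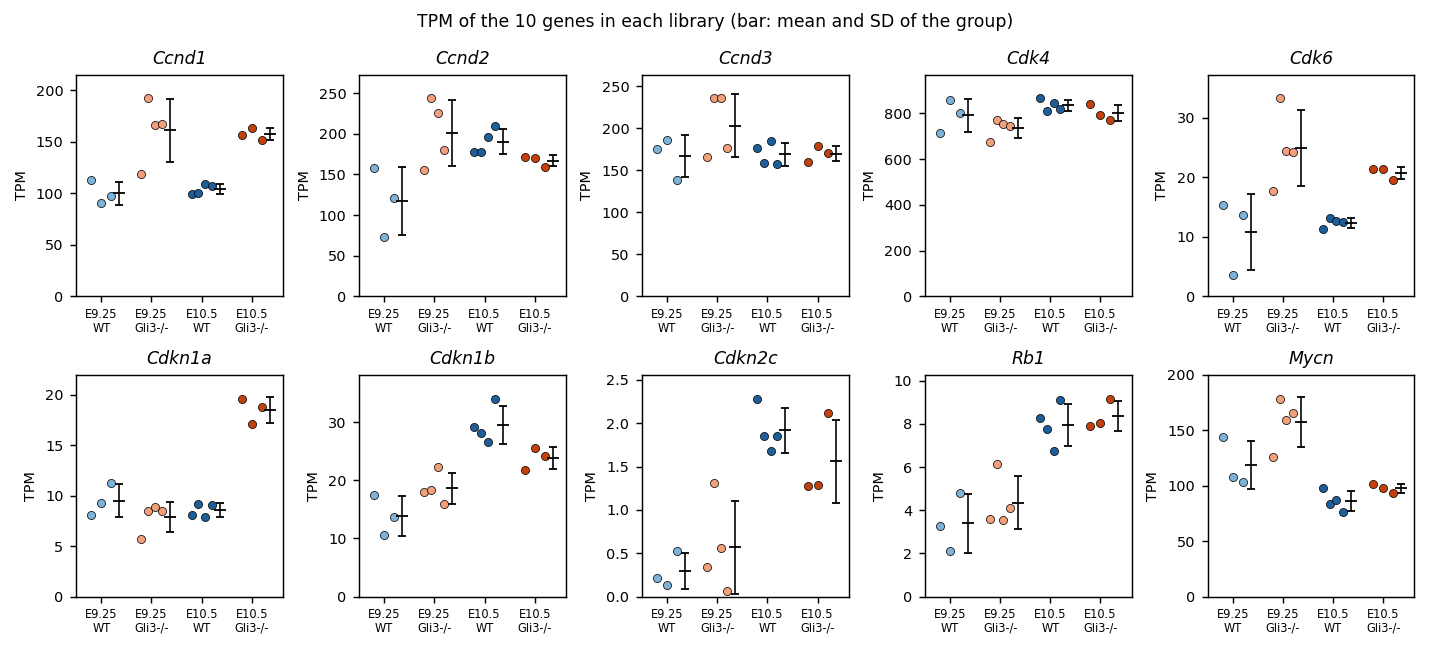
TPM (vertical axis, linear from 0) of each of the 10 genes in the 14 libraries, with groups along the horizontal axis, points for libraries and bars for the mean and SD of a group. At E10.5 the 3 Gli3-/- libraries lie above all 4 WT libraries for Ccnd1, Cdk6 and Cdkn1a, while Cdkn1b, Cdkn2c and Rb1 are lowest in the E9.25 WT libraries by group mean.

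At E10.5 Ccnd1, Cdk6 and Cdkn1a were upregulated in anterior buds without Gli3, by 1.51 to 2.16 times in mean TPM, while at E9.25 no member passed the test. For Ccnd1 and Cdk6 the E9.25 estimates were 0.67 and 1.30 log2 units, with wider intervals, against 0.59 and 0.70 at E10.5. Of these 3 genes, a difference of the effect between stages was called for Cdkn1a alone. In whole pieces of tissue fewer cells of a type and less RNA per cell cannot be told apart. Groups were compared with limma on log2(TPM + 1), and a gene was called when its p-value, adjusted over all genes tested by the Benjamini-Hochberg method, was under 0.05. At E10.5 3 of the 10 genes were upregulated and 0 downregulated in Gli3-/- buds, against 4.77% of 15654 genes called (1.84% higher and 2.93% lower). As the 10 genes were chosen with earlier results of these data known, this share describes them and is not a test of a set. The ranges of the 2 genotypes did not overlap for 5 of the 10 genes at E10.5, against 19.3% of all genes. At E9.25 9 of the 10 genes passed the filter, which asked for 1 TPM or more in 3 or more libraries, and 0 of the 9 were called by limma, against 0.136% of 14760 genes (0.108% higher and 0.0271% lower). At an unadjusted p under 0.05 the E9.25 comparison held 4 of the 9 genes (Ccnd1, Ccnd2, Cdk6 and Mycn), against 3247 or 22.0% of all genes, and in the E10.5 comparison 19.6% of all genes passed at that level. Without E9.25 WT replicate 2 the count of members called at E9.25 was again 0, and 18 genes were called in all. The ranges did not overlap at E9.25 for 2 of the 10 genes, Ccnd1 and Cdk6, against 13.3% of all genes. The median log2 fold change over the members tested was 0.04 at E10.5, against -0.02 over all genes, and 0.41 at E9.25, against 0.23 over all genes.

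Between stages, the inhibitors, Rb1 and Mycn held most of the calls. From E9.25 to anterior E10.5 in WT buds 4 of the 10 genes rose (Ccnd2, Cdkn1b, Cdkn2c and Rb1) and 1 fell (Mycn), against 48.7% of 15444 genes called (38.1% higher and 10.6% lower). In Gli3-/- buds 2 rose (Cdkn1a and Rb1) and 1 fell (Mycn), against 25.0% of 15434 genes (15.8% higher and 9.17% lower). Without E9.25 WT replicate 2 the WT counts were again 4 and 1. Ranges of the stages did not overlap for 5 of the 10 genes in WT and for 4 in Gli3-/-, against 53.5% and 35.7% of all genes. Both shares of members are near those of all genes. The WT split of all genes moved with the scaling, with 5885 genes higher and 1635 lower at E10.5 as deposited and 2668 higher and 3050 lower after quantile normalization. The median of all genes was 0.34 in the WT stage comparison, so that log2 fold changes of stage in WT are also given relative to it. The difference between the genotype effects at the 2 stages was called for 1 of the 10 genes, Cdkn1a, against 2.13% of 16368 genes (0.477% with a higher and 1.65% with a lower value).

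**Figure D2:**
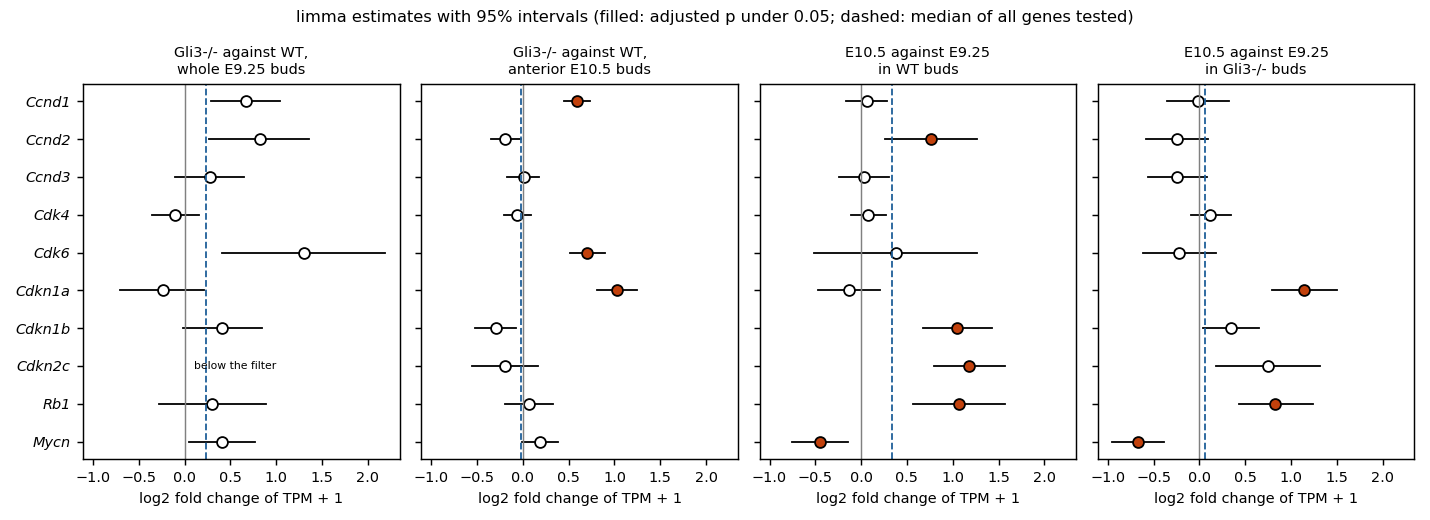
Log2 fold changes of TPM + 1 (horizontal axis) of the 10 genes (vertical axis) in 4 comparisons, as limma estimates with 95% intervals; filled points have an adjusted p under 0.05, the grey line marks 0 and the dashed line the median of all genes tested. At E10.5 the filled points of loss of Gli3 are Ccnd1 (0.59), Cdk6 (0.70) and Cdkn1a (1.03), and Cdkn2c was below the filter at E9.25.

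Ccnd1 encodes cyclin D1, which is induced by many growth signals (chr7:144929931-144939869, minus strand). It stood at 112, 90.8 and 97.1 TPM in E9.25 WT, at 119, 192, 166 and 167 TPM in E9.25 Gli3-/-, at 99.4, 100.5, 109 and 107 TPM in E10.5 WT, and at 157, 163 and 152 TPM in E10.5 Gli3-/-. The mutant libraries lay above every WT library of their stage, narrowly so at E9.25 (119 against 112 TPM) and clearly so at E10.5 (152 against 109 TPM). At E10.5 Ccnd1 was upregulated in Gli3-/- by 0.59 log2 units (SE 0.06, 95% interval 0.45 to 0.73, adjusted p = 0.00109 by limma), a ratio of mean TPM of 1.51. This call was kept under each of the 11 alternative settings and without any 1 library. At E9.25 the estimate was 0.67 (SE 0.17, 95% interval 0.29 to 1.04), and it did not pass (limma adjusted p = 0.178). The genotype effect did not differ detectably between stages, with a difference of -0.07 log2 units (95% interval -0.47 to 0.32, limma adjusted p = 0.826). Between stages Ccnd1 differed by 0.06 log2 units in WT (95% interval -0.16 to 0.28) and by -0.02 in Gli3-/- (95% interval -0.35 to 0.32), neither of which passed. With median-of-ratios size factors the WT value became -0.28 and was called (adjusted p = 0.0373).

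Ccnd2 encodes cyclin D2 (chr6:127125162-127152193, minus strand). Its values were 157, 73.3 and 121 TPM in E9.25 WT, 155, 244, 225 and 180.4 TPM in E9.25 Gli3-/-, 178, 178, 196 and 209 TPM in E10.5 WT, and 171, 170.0 and 159 TPM in E10.5 Gli3-/-. At E10.5 the 3 mutant libraries lay below the 4 WT libraries, the reverse of Ccnd1, while at E9.25 3 of 4 mutant libraries lay above all WT libraries. The E10.5 difference was -0.19 log2 units (SE 0.08, 95% interval -0.35 to -0.02), and it did not pass (limma adjusted p = 0.216). The E9.25 difference was 0.82 (SE 0.25, 95% interval 0.27 to 1.36, limma adjusted p = 0.217). The difference between the genotype effects was -1.0 log2 units (SE 0.29, 95% interval -1.62 to -0.39) and did not pass (limma adjusted p = 0.0894). It passed without E9.25 WT replicate 1 (-1.25, adjusted p = 0.0132) and did not without replicate 2 (-0.70, adjusted p = 0.141).

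From E9.25 to anterior E10.5 in WT Ccnd2 rose by 0.76 log2 units (SE 0.22, limma adjusted p = 0.0215), 0.42 above the median of all genes. Without E9.25 WT replicate 2 the rise was 0.46 (adjusted p = 0.0166), and it was not called without E10.5 WT replicate 4 (adjusted p = 0.0580), with median-of-ratios size factors (0.41, adjusted p = 0.0734), with the trend over gene span removed (0.40, adjusted p = 0.0776) or with no filter (adjusted p = 0.0585). In Gli3-/- the difference between stages was -0.25 (95% interval -0.58 to 0.09, limma adjusted p = 0.268) and was called as a fall with median-of-ratios size factors (-0.32, adjusted p = 0.0463), with the trend over gene span removed (-0.34, adjusted p = 0.0361) and without E9.25 Gli3-/- replicate 1 (-0.36, adjusted p = 0.0449).

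Ccnd3 encodes cyclin D3 (chr17:47505051-47599691, plus strand) and varied less over the 14 libraries than the other two, with a root mean square spread of 0.20 log2 units against 0.35 for Ccnd1 and 0.40 for Ccnd2. It stood at 138 to 187 TPM in E9.25 WT, 165 to 236 TPM in E9.25 Gli3-/-, 157 to 185 TPM in E10.5 WT and 159.9 to 178 TPM in E10.5 Gli3-/-, and the groups overlapped in each comparison. At E10.5 its genotype difference was 0.01 log2 units (95% interval -0.17 to 0.18), an interval that does not reach the 0.59 of Ccnd1. In Gli3-/- buds its stage difference of -0.24 did not pass (limma adjusted p = 0.250), and it was called with median-of-ratios size factors (-0.31, adjusted p = 0.0450) and with the trend over gene span removed (-0.39, adjusted p = 0.0121).

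The balance of the 3 cyclins within a library does not depend on library scaling and was described without a test. Ccnd1 made up 26.1% ± 0.99 (SD, n = 3) of the summed TPM of the D-type cyclins in E9.25 WT, 28.5% ± 2.4 (n = 4) in E9.25 Gli3-/-, and, at E10.5, 22.4% ± 0.47 (n = 4) of it in WT and 31.8% ± 0.32 (n = 3) in Gli3-/-. The E10.5 ranges, 21.9% to 23.0% and 31.5% to 32.1%, lay well apart. Ccnd2 made up 30.1% ± 8.0, 35.5% ± 0.81, 41.0% ± 2.2 and 33.8% ± 1.2 in the same order. Thus Ccnd2 was the most abundant D-type cyclin in E10.5 WT by group mean, though with 39.1% against 39.0% in replicate 1 it barely exceeded Ccnd3 there. In E10.5 Gli3-/- the 3 cyclins took near equal shares, with Ccnd3 at 34.4% ± 1.4. In E9.25 WT Ccnd3 was highest, at 43.8% ± 8.2, and E9.25 WT replicate 2 alone held 53.2%. The sum of the 3 cyclins was 384 ± 52.8 TPM in E9.25 WT, 565 ± 104 TPM in E9.25 Gli3-/-, 463 ± 23.1 TPM in E10.5 WT and 494 ± 15.6 TPM in E10.5 Gli3-/-, and the ranges overlapped between genotypes at both stages.

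**Figure D3:**
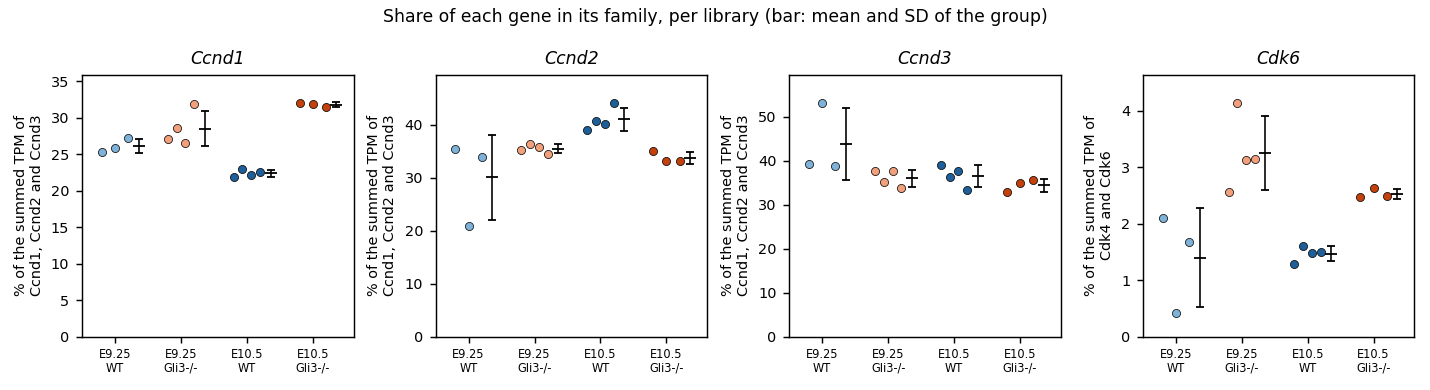
Share of each D-type cyclin in the summed TPM of the 3, and of Cdk6 in that of Cdk4 and Cdk6 (vertical axes, percent from 0), by group along the horizontal axis; points are libraries and bars the mean and SD. The share of Ccnd1 in E10.5 Gli3-/- (31.5% to 32.1%) lies above that in E10.5 WT (21.9% to 23.0%), and the share of Ccnd2 lies below.

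Cdk4 encodes the main kinase partner of the D-type cyclins (chr10:127063534-127067920, plus strand). It was the most abundant of the 10 transcripts in every library, at 716 to 859 TPM in E9.25 WT, 675 to 770.2 TPM in E9.25 Gli3-/-, 812 to 866 TPM in E10.5 WT and 771 to 842 TPM in E10.5 Gli3-/-. The genotypes overlapped at both stages. The genotype difference was -0.06 log2 units at E10.5 (95% interval -0.21 to 0.09) and -0.10 at E9.25 (95% interval -0.36 to 0.16), and neither passed. Between stages it differed by 0.08 in WT and 0.12 in Gli3-/-, which did not pass; in WT it was called with quantile normalization (0.25, adjusted p = 0.0333).

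Cdk6 encodes the second kinase partner (chr5:3341485-3531008, plus strand). It stood at 15.3, 3.52 and 13.7 TPM in E9.25 WT, at 17.7, 33.2, 24.3 and 24.3 TPM in E9.25 Gli3-/-, at 11.2, 13.2, 12.7 and 12.4 TPM in E10.5 WT, and at 21.3, 21.3 and 19.6 TPM in E10.5 Gli3-/-. As for Ccnd1, the mutants lay above all WT libraries at both stages. At E10.5 Cdk6 was upregulated by 0.70 log2 units (SE 0.09, 95% interval 0.51 to 0.90, adjusted p = 0.00249 by limma), a ratio of mean TPM of 1.68. The call held without any 1 library and in 9 of 11 other settings, and it was lost, for one, in a single model of all 14 libraries (adjusted p = 0.443), which takes 1 spread per gene from both stages. At E9.25 the estimate was 1.30 (SE 0.40, 95% interval 0.41 to 2.19, limma adjusted p = 0.217), and it was 0.71 without E9.25 WT replicate 2 (adjusted p = 0.369). In the single model of all libraries the E9.25 values of Ccnd1, Ccnd2 and Cdk6 were called (adjusted p = 0.0153, 0.0388 and 0.0411). That model called 1185 of 14760 genes at E9.25, against 20 in the fit of the E9.25 libraries alone. The genotype effect on Cdk6 differed by -0.60 log2 units between stages (95% interval -1.60 to 0.40, limma adjusted p = 0.440). With 1 library left out this difference ranged from -0.93 to -0.01. From E9.25 to E10.5 Cdk6 differed by 0.38 in WT (95% interval -0.51 to 1.27), a value that was -0.21 without E9.25 WT replicate 2, and by -0.22 in Gli3-/- (95% interval -0.62 to 0.18), and neither passed; the latter was called with the trend over gene span removed (-0.39, adjusted p = 0.0406).

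Cdk6 stayed a small part of the 2 kinases. It made up 1.39% ± 0.88 of their summed TPM in E9.25 WT, 3.24% ± 0.66 in E9.25 Gli3-/-, and, at E10.5, 1.46% ± 0.13 of it in WT and 2.52% ± 0.084 in Gli3-/-. The summed TPM of both kinases ranged from 826 to 878 TPM in E10.5 WT and from 790.4 to 864 TPM in E10.5 Gli3-/-, so that these ranges overlapped.

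Cdkn1a encodes p21, a CIP/KIP inhibitor and well-known target of p53 (chr17:29090979-29100722, plus strand). It stood at 8.04, 9.24 and 11.3 TPM in E9.25 WT, at 5.73, 8.51, 8.90 and 8.50 TPM in E9.25 Gli3-/-, at 8.03, 9.18, 7.92 and 9.11 TPM in E10.5 WT, and at 19.6, 17.1 and 18.8 TPM in E10.5 Gli3-/-. The E10.5 mutant libraries stood above the 11 libraries of the other groups, whose highest value was 11.3 TPM. With loss of Gli3 at E10.5 Cdkn1a rose by 1.03 log2 units (SE 0.10, 95% interval 0.81 to 1.25, adjusted p = 0.000643 by limma), a ratio of mean TPM of 2.16, and the call held in each of the 11 other settings and without any 1 library. At E9.25 the estimate was -0.24 (95% interval -0.70 to 0.21, limma adjusted p = 0.445). The difference between these effects was 1.27 log2 units (SE 0.22, 95% interval 0.81 to 1.73, limma adjusted p = 0.00650). It was called without any 1 of the 14 libraries and in 8 of 10 other settings, and it was lost with either block by replicate number. Between stages Cdkn1a rose in Gli3-/- by 1.14 (SE 0.16, limma adjusted p = 0.000629) and differed by -0.13 in WT (95% interval -0.47 to 0.21); in WT it was called as a fall with quantile normalization (-0.58, adjusted p = 0.0240).

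Cdkn1b encodes p27, a CIP/KIP inhibitor that is abundant in cells leaving the cycle (chr6:134920401-134925513, plus strand). Its values were 17.4, 10.6 and 13.6 TPM in E9.25 WT, 18.0, 18.3, 22.3 and 15.9 TPM in E9.25 Gli3-/-, 29.1, 28.2, 26.5 and 34.1 TPM in E10.5 WT, and 21.7, 25.6 and 24.2 TPM in E10.5 Gli3-/-. At E10.5 all mutant libraries lay below all WT libraries, opposite to Cdkn1a, but the difference of -0.29 log2 units (SE 0.10, 95% interval -0.52 to -0.07) did not pass (limma adjusted p = 0.148). In WT it rose between stages by 1.05 (SE 0.17, limma adjusted p = 0.00184), 0.71 above the median of all genes, and the ratio of mean TPM was 2.12. In Gli3-/- the stage difference of 0.35 (95% interval 0.04 to 0.65) did not pass (limma adjusted p = 0.0901), though it did without E9.25 Gli3-/- replicate 3 (0.43, adjusted p = 0.0452). The difference between the 2 stage effects, -0.71 log2 units (95% interval -1.17 to -0.24), did not pass (limma adjusted p = 0.111), and it passed without E9.25 WT replicate 1 (-0.87, adjusted p = 0.0237).

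Cdkn2c encodes p18, an INK4 inhibitor of CDK4 and CDK6 (chr4:109660876-109667189, minus strand), and was the least abundant of the 10. It stood at 0.213, 0.133 and 0.528 TPM in E9.25 WT, at 0.340, 1.31, 0.554 and 0.0623 TPM in E9.25 Gli3-/-, at 2.28, 1.86, 1.68 and 1.85 TPM in E10.5 WT, and at 1.27, 1.29 and 2.12 TPM in E10.5 Gli3-/-. The E9.25 values correspond to an estimated 1.83 to 27.4 reads per kilobase and were below the filter, so that no genotype test was made there. All 4 E10.5 WT libraries lay above the E9.25 WT libraries, and the rise was 1.18 on the log2(TPM + 1) scale (SE 0.17, limma adjusted p = 0.00111), which understates the ratio of mean TPM of 6.58. In Gli3-/- the stage difference was 0.75 (SE 0.26, limma adjusted p = 0.0563), and it passed without E9.25 Gli3-/- replicate 2, the library at 1.31 TPM (0.96, adjusted p = 0.00750). The genotypes overlapped at E10.5, with a difference of -0.20 (95% interval -0.56 to 0.16).

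Among all 7 inhibitors of the INK4 and CIP/KIP families, 1 of the 5 tested rose (Cdkn1a) and 0 fell with loss of Gli3 at E10.5, where 1.84% of all genes rose and 2.93% fell. The list median was -0.18 log2 units against -0.02 over all genes. From E9.25 to E10.5 in WT 3 of 5 rose and 0 fell, where 38.1% of all genes rose, with a median of 1.05 against 0.34 over all genes. In Gli3-/- 2 of 5 rose and 0 fell, where 15.8% of all genes rose, with a median of 0.75 against 0.06. The remaining member of this rise was Cdkn1c, which encodes p57, an imprinted CIP/KIP inhibitor. It was the most abundant inhibitor and rose from 109 to 322 TPM in WT (1.54 log2 units, SE 0.16, limma adjusted p = 0.000266) and from 102 to 286 TPM in Gli3-/- (1.46, SE 0.19, limma adjusted p = 0.000429). Cdkn2d, which encodes the INK4 inhibitor p19, stood at 14.4 to 17.9 TPM by group mean and was not called. The INK4 genes Cdkn2a and Cdkn2b stood at group means of 0 to 0.305 TPM and were not tested.

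Rb1 encodes the pocket protein that the D-type cyclin kinases phosphorylate (chr14:73183673-73325822, minus strand). It stood at 3.26, 2.10 and 4.81 TPM in E9.25 WT, at 3.6, 6.14, 3.53 and 4.09 TPM in E9.25 Gli3-/-, at 8.27, 7.75, 6.74 and 9.09 TPM in E10.5 WT, and at 7.89, 8.04 and 9.18 TPM in E10.5 Gli3-/-. The 7 E10.5 libraries lay above the 7 E9.25 libraries, and the genotypes overlapped at each stage. Rb1 rose between stages by 1.07 log2 units in WT (SE 0.22, limma adjusted p = 0.00555), 0.73 above the median of all genes, and by 0.83 in Gli3-/- (SE 0.18, limma adjusted p = 0.00790). Without E9.25 WT replicate 2 the WT rise was 0.84 (adjusted p = 0.00579). With loss of Gli3 it differed by 0.07 at E10.5 (95% interval -0.20 to 0.33) and by 0.30 at E9.25 (95% interval -0.28 to 0.89), and neither passed. With 1 library left out the E9.25 value ranged from 0.08 to 0.53. The mean read depth over Rb1 was only 0.254 to 1.02, while its TPM corresponds to an estimated 50.9 to 231 reads per kilobase. For Cdk6 the depth was 6.9 to 54.2 at an estimated 85.5 to 711 reads per kilobase. The Rb1 levels may thus rest on a small part of the gene, which was not tested. Rb1 overlaps 4 genes at a TPM of at least 1 in some library, 2 of them on the same strand (Mir687 and Gm17233, at most 1.64 TPM), and Rcbtb2 and Lpar6 on the opposite strand, at 87.7 to 153 TPM and 8.93 to 19.2 TPM. Ccnd1, Ccnd3 and Cdk4 each overlap 1 such gene on the opposite strand (Oraov1, Bysl and Tspan31, at most 21.9, 66.2 and 58.1 TPM). Whether reads were counted by strand is not given in the sources used here, so that reads of such pairs may not be told apart.

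The 13 pocket protein, E2F and DP genes held 0 calls for loss of Gli3 at E10.5 and 0 at E9.25, with medians of 0.09 and 0.36 log2 units against -0.02 and 0.23 over all genes. At an unadjusted p under 0.05 4 genes passed at E9.25 (E2f3, E2f4, E2f7 and E2f8) and 2 at E10.5 (E2f4 and E2f5), against 22.0% and 19.6% of all genes. Between stages in WT 8 rose and 2 fell (38.1% and 10.6% of all genes), with a median of 0.49 against 0.34. Of the risen ones E2f3, E2f6 and E2f8 lost the call without E9.25 WT replicate 2 or 3 or E10.5 WT replicate 1, 3 or 4, and E2f6 also without E9.25 WT replicate 1, with an adjusted p of 0.0532 to 0.126. In Gli3-/- 3 rose (Rb1, Rbl1 and E2f2) and 2 fell (E2f5 and Tfdp1), where 15.8% of all genes rose and 9.17% fell. The list median there was 0.16 against 0.06 over all genes. The Rbl1 and E2f5 calls were lost without E9.25 Gli3-/- replicate 4 or any 1 of the 3 E10.5 Gli3-/- libraries (adjusted p = 0.0727 to 0.104 and 0.0826 to 0.149). That of Tfdp1 was lost without any 1 library but E9.25 Gli3-/- replicate 1 (adjusted p = 0.0527 to 0.117). E2f2, an activator E2F, rose in WT to 9.77 TPM (1.26 log2 units, limma adjusted p = 0.00196). E2f5, a repressor E2F, fell from 87.7 to 62.3 TPM (-0.49, limma adjusted p = 0.00225).

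Mycn encodes N-MYC, a growth regulator of embryonic progenitors (chr12:12936096-12941914, minus strand). It stood at 144, 108 and 104 TPM in E9.25 WT, at 126, 179, 159 and 166 TPM in E9.25 Gli3-/-, at 97.6, 83.7, 87.0 and 75.9 TPM in E10.5 WT, and at 101.3, 98.4 and 93.3 TPM in E10.5 Gli3-/-. Within each genotype all E10.5 libraries lay below all E9.25 libraries. Mycn fell by 0.67 log2 units in Gli3-/- (SE 0.13, limma adjusted p = 0.00330), a call kept in each of the 11 other settings and without any 1 library. In WT it fell by 0.45 (SE 0.13, limma adjusted p = 0.0241), which is -0.79 relative to that of all genes. The WT call held in 7 of 11 other settings. It was lost without E9.25 WT replicate 1 (-0.30, adjusted p = 0.0526) or without E10.5 WT replicate 2, 3 or 4 (adjusted p = 0.0513, 0.0502 and 0.0669). It was also lost with no filter (adjusted p = 0.0510), with sample quality weights (-0.30, adjusted p = 0.0847) and with either block by replicate number. With loss of Gli3 Mycn differed by 0.19 at E10.5 (95% interval -0.01 to 0.38, limma adjusted p = 0.277) and by 0.41 at E9.25 (95% interval 0.05 to 0.77, limma adjusted p = 0.217).

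In the MYC and MAX network of 11 genes, 0 rose and 1 fell with loss of Gli3 at E10.5, with a median of 0.08. The gene was Mxd4, a MAX partner that opposes MYC, at 32.2 TPM in WT and 19.1 TPM in Gli3-/- (-0.72 log2 units, SE 0.15, limma adjusted p = 0.0299), and the call was lost without E10.5 WT replicate 1, 3 or 4 or Gli3-/- replicate 1 or 3, with an adjusted p of 0.0595 to 0.124. Between stages 5 genes rose in WT and the same 5 rose in Gli3-/- (Mycl, Mxd1, Mxd3, Mxd4 and Mxi1), while Myc and Mycn fell in both and Max fell in Gli3-/-. Over all genes 38.1% rose and 10.6% fell in WT, and 15.8% rose and 9.17% fell in Gli3-/-. In Gli3-/- the Mxd1 call was lost without E9.25 replicate 1 or 4 or any 1 of the 3 E10.5 libraries (adjusted p = 0.0503 to 0.154), and that of Max without any 1 library but E9.25 replicate 1 (adjusted p = 0.0623 to 0.140). Myc, which encodes c-MYC, fell from 46.5 to 13.9 TPM in WT (-1.66, SE 0.17, limma adjusted p = 0.000277) and from 66.7 to 15.3 TPM in Gli3-/- (-2.06, SE 0.15, limma adjusted p = 9.36e-06). By group mean, Mycn was more abundant than Myc in each of the 4 groups.

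The genes downstream of the D-type cyclins held no call between genotypes. Of the 14 E2F targets of S phase, such as Mcm2 to Mcm7 and Pcna, 0 were called for loss of Gli3 at E10.5 and 0 at E9.25, with medians of 0.07 and 0.23 against -0.02 and 0.23 over all genes. At an unadjusted p under 0.05 5 of the 14 passed at each stage, among them Mcm2, Mcm3 and Cdt1 at both, against 22.0% of all genes at E9.25 and 19.6% at E10.5. Of 10 genes of cyclin E, cyclin A, CDK2 and its activators, 0 were called in either genotype comparison, with medians of 0.06 and 0.04, and at an unadjusted p under 0.05 a single gene (Cdc25a) passed at E9.25 and 3 at E10.5 (Ccne1, Ccna2 and Cdc25a). Ccna2, cyclin A2, stood at 163 TPM in E10.5 WT and 193 TPM in E10.5 Gli3-/- (0.24 log2 units, limma adjusted p = 0.0597). In the WT stage comparison 38.1% of all genes rose and 10.6% fell. Between stages in WT the S phase targets Mcm4, Rrm1 and Tk1 rose, by 0.21 to 0.40 log2 units, Cdk2 rose by 0.49 and Ccne1 fell by 0.38. Of these, Cdk2 and Tk1 were called without any 1 library, whereas the Mcm4 call was kept only without E9.25 WT replicate 1, that of Rrm1 was lost without E10.5 WT replicate 2 or 4 (adjusted p = 0.0513 and 0.0610) and that of Ccne1 without E10.5 WT replicate 4 (adjusted p = 0.0565). Of 8 genes of cyclin D turnover and CDK4/6 folding, 0 were called for loss of Gli3 at either stage, at an unadjusted p under 0.05 6 of the 8 passed in the E9.25 comparison and 1 in that of E10.5 (22.0% and 19.6% of all genes), and Gsk3b, whose kinase marks cyclin D1 for degradation, rose between stages in WT (0.99, SE 0.30, limma adjusted p = 0.0256), a call lost without E10.5 WT replicate 1, 3 or 4 (adjusted p = 0.0530 to 0.0675).

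Cdkn1a was set beside other p53 targets. Of 14 targets, a list that leaves out Cdkn1a, 1 rose and 1 fell with loss of Gli3 at E10.5, where 1.84% of all genes rose and 2.93% fell. The list median was 0.02 against -0.02 over all genes. Pmaip1, which encodes the apoptosis promoter NOXA, rose from 26.7 to 65.0 TPM (1.21 log2 units, SE 0.24, limma adjusted p = 0.0233), and the call was lost without E10.5 WT replicate 1 or 2 or Gli3-/- replicate 2 or 3, with an adjusted p of 0.0564 to 0.0990. Trp53inp1, a stress-induced gene, fell from 23.9 to 12.5 TPM (-0.86, SE 0.16, limma adjusted p = 0.0171), and the call was lost without E10.5 Gli3-/- replicate 1 or 3, with an adjusted p of 0.0623 and 0.0558. Mdm2, a p53 target that limits p53, stood at 38.3 and 38.8 TPM (0.02 log2 units, limma adjusted p = 0.929), and Bax, which promotes apoptosis, at 132 and 148 TPM (0.17, limma adjusted p = 0.191); both were named after their values were seen. At E9.25 0 of 14 were called, and at an unadjusted p under 0.05 2 passed, Zmat3 and Perp, against 22.0% of all genes. Between stages 5 rose (Mdm2, Pmaip1, Trp53inp1, Zmat3 and Btg2) and 3 fell (Phlda3, Aen and Plk2) in WT, and in Gli3-/- Pmaip1, Trp53inp1 and Btg2 rose and the same 3 fell. Of all genes 38.1% rose and 10.6% fell in WT, and 15.8% rose and 9.17% fell in Gli3-/-. The WT call of Zmat3 was lost without any 1 library but E9.25 WT replicate 1 (adjusted p = 0.0746 to 0.103) and held in 3 of 11 other settings. That of Phlda3 was lost without E9.25 WT replicate 3 or E10.5 WT replicate 1, 3 or 4 (adjusted p = 0.0514 to 0.0649), and that of Mdm2 without E10.5 WT replicate 1 or 4 (adjusted p = 0.0546 and 0.0576). In Gli3-/- the Phlda3 call was lost without E10.5 Gli3-/- replicate 1 (adjusted p = 0.0515).

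**Figure D4:**
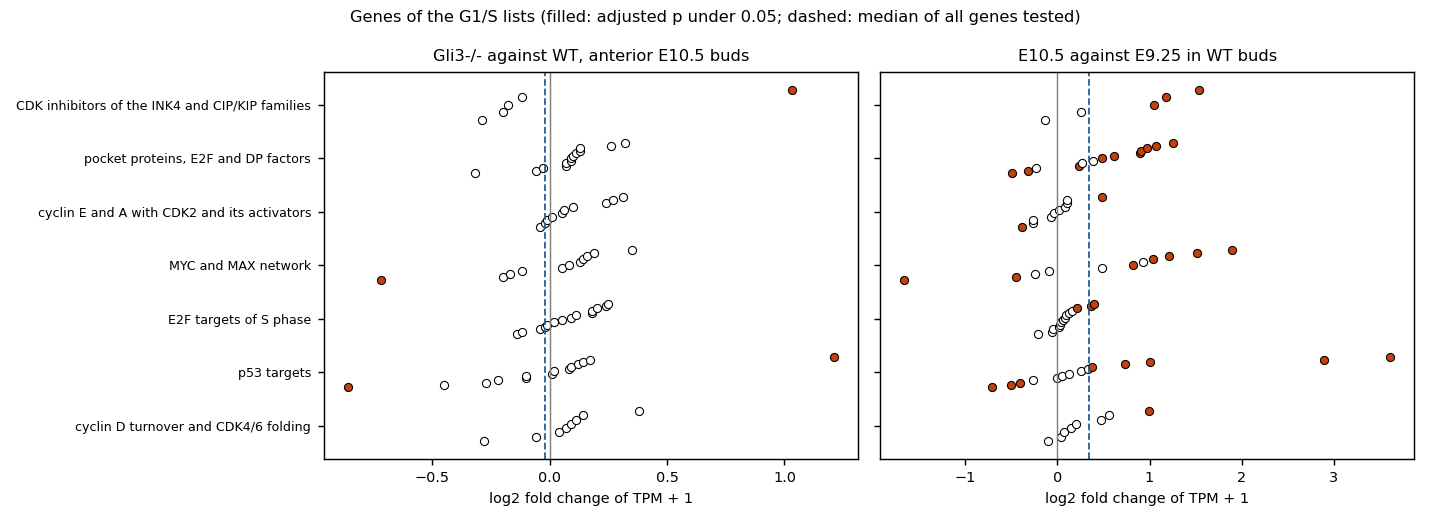
Log2 fold change of TPM + 1 (horizontal axis) of each tested gene in 7 lists of G1 and S phase genes (vertical axis), for Gli3-/- against WT at E10.5 (left) and for E10.5 against E9.25 in WT (right); filled points have an adjusted p under 0.05, and the dashed line is the median of all genes tested. In the left panel 4 points are filled, Cdkn1a, Pmaip1, Trp53inp1 and Mxd4, while the S phase targets lie between -0.14 and 0.25.

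The genes most like each member but Rb1 across the 14 libraries were found by the root mean square difference of log2(TPM + 1) after centring each gene on its mean, over 16368 genes. This likeness is a description over libraries that share stage, genotype and depth. Nearest to Ccnd1 were Dnmt3b, Nol10 and Plxnc1, at 0.134 to 0.139 log2 units, where the spread of Ccnd1 itself was 0.35. Nearest to Cdk6 were AI606181, Bend4 and Irs1, at 0.227 to 0.267, with a spread of 0.67 for Cdk6. Nearest to Cdkn1a were Padi3, Grm4 and Chrna1, at 0.161 to 0.227, with a spread of 0.46. Nearest to Ccnd2 were Il6st, Clmn and Tbl1x, at 0.070 to 0.091, and nearest to Ccnd3 were Aph1a, C330006A16Rik and Eef1g, at 0.064 to 0.065. Nearest to Cdkn1b were Nsmf, Dtx3 and Wdr60, nearest to Cdkn2c were Gm26688, Fam214b and Pdlim5, and nearest to Mycn were Pus7, Elac2 and Yars. Nearest to Cdk4 were Psmd8, Zc3hc1 and Idh3b, at 0.053 to 0.055, where Cdk4 itself varied by 0.10. No member was among the 3 genes nearest to another member.

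Other cell types of the bud moved with some of these comparisons, and their part in the results was not tested. At E9.25 the summed TPM of 8 flank and lateral plate mesoderm markers was 14.9 to 31.6 in WT and 57.0 to 133 in Gli3-/-. Of these 3 of 6 tested genes were called higher, against 0.108% of all genes, and Nkx2-5 stood at 0 in every library. The 8 endothelial markers summed to 71.7 to 125 TPM in WT and 138 to 205 TPM in Gli3-/- at that stage, with 0 of 8 called by limma and 5 of 8 at an unadjusted p under 0.05, against 22.0% of all genes. These sums lay higher in the same E9.25 Gli3-/- libraries in which Ccnd1 and Cdk6 lay higher. The neural sums lay lower in the mutants at E9.25, at 6.26 to 12.6 TPM in WT and 3.39 to 5.10 TPM in Gli3-/-. The limb mesenchyme sums overlapped at E9.25, at 744 to 916 TPM in WT and 681 to 1024.5 TPM in Gli3-/-. So did the surface ectoderm, the somite and muscle, and the erythroid sums. At E10.5 the flank markers summed to 1.58 to 2.99 TPM in WT and 1.59 to 2.00 TPM in Gli3-/-. Of these Isl1 stood at 0 to 0.174 TPM in WT and 0.494 to 0.751 TPM in Gli3-/-. Gata6 and Bmper went the other way. Gata6 stood at 1.07 to 1.75 TPM in WT and 0.779 to 0.866 TPM in Gli3-/-, and Bmper at 0.334 to 0.93 TPM and 0.0819 to 0.144 TPM. The 8 limb mesenchyme markers summed to 1038 to 1253 TPM in E10.5 WT and 752 to 789 TPM in E10.5 Gli3-/-, with 1 gene higher (Fgf10) and 5 lower. Of all genes 1.84% were higher and 2.93% lower in that comparison. The 8 surface ectoderm markers summed to 215 to 266 TPM and 297 to 332 TPM, with a list median of -0.25 log2 units and 1 of 8 called, Fgf8, a signal of the limb bud ridge, at 50.4 to 69.0 TPM in WT and 131 to 171 TPM in Gli3-/-. The endothelial sums overlapped at E10.5, at 102 to 126 TPM and 107 to 131 TPM, as did the somite and muscle sums, at 52.6 to 63.6 TPM and 35.4 to 57.4 TPM, and the neural sums, at 8.32 to 10.4 TPM and 9.65 to 15.5 TPM. The erythroid sums varied widely within groups, from 7742 to 38251 TPM over the 14 libraries. Between stages 3 of 3 tested flank markers fell in WT and 6 of 6 in Gli3-/-, while of 5 tested somite and muscle progenitor markers 4 rose and 1 fell in each genotype (Meox1, from 13.2 to 18.2 TPM at E9.25 to 5.94 to 7.93 TPM at E10.5 in WT), beside the stage changes of Cdkn1b, Cdkn2c, Rb1 and Mycn. Over all genes 38.1% rose and 10.6% fell between stages in WT, and 15.8% rose and 9.17% fell in Gli3-/-.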

How the data were processed

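RNA-seq of 14 libraries of mouse forelimb buds was analysed. RNA was extracted with TRIzol, libraries were made with the NEBNext Ultra II kit and sequenced as single reads of 100 bases on a NovaSeq, and reads were aligned with HISAT2 by the authors. The authors deposited 1 table per library with the TPM, FPKM and coverage (mean read depth, a signal) of each gene. The submitters' processing notes name mm10, Bowtie2 2.2.5, MACS2 and SEACR for the series, of which the last 3 belong to other assays that were not used here. Coordinates are as the tables give them. The authors' tables hold TPM values that sum to the same total in each library and no counts, so that no count model was run, and whether reads were counted by strand is not given in the sources used here. Reads per library were estimated from coverage, FPKM and TPM.

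Genes that reached 1 TPM in 3 or more of the compared libraries were fitted as log2(TPM + 1) with limma 3.58.1 (lmFit and eBayes with a trend) in R 4.3.3, with Benjamini-Hochberg adjustment over all genes tested and a threshold of 0.05, two-sided. A fold change on this scale understates the change of genes of low TPM. Each comparison used only its own libraries, and the interaction used all 14. The fits were also run on simulated data with known changes, drawn with independent noise for each gene and library. That simulation held no shift shared by the genes of a library, so it cannot show how the fits behave under such shifts. Python 3.11.15 with pandas 2.3.3, NumPy 2.4.6 and matplotlib 3.10.9 served for the rest. The text names the 10 members, in each list up to 3 called genes by the smallest adjusted p, and the 3 genes nearest to each member (those of Rb1 are not reported here); other genes named were chosen after their values were seen. The members and lists were chosen with earlier results of these data known. Libraries are pools of embryos, and p-values measure the spread between such pools. Alternatives changed the pseudocount (0.1), the filter (none, or 5 TPM), the scaling (median-of-ratios size factors, quantile normalization, or removal of the trend over gene span) and the model (eBayes with no trend, sample quality weights, a replicate block, or all 14 libraries fitted together), or left out each library. A block by the replicate numbers of the deposited tables, which differ from those of the sample titles in E10.5 Gli3-/-, was added after seeing the data.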

Additional observations from a re-analysis of the deposited data

Results flagged for a closer look

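Among 20 sets of 4 libraries tested (the 10 genes in E9.25 Gli3-/- and in E10.5 WT), 1 held a library far from the others. Cdkn1a stood at 5.73 TPM in E9.25 Gli3-/- replicate 1 and at 8.50 to 8.90 TPM in the other 3 libraries, a gap of 0.893 of the group's range on the log2(TPM + 1) scale, above Dixon's critical value for 4 samples. Chance flags about 1 in 20 such sets.

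The effect of loss of Gli3 on Cdkn1a differed between stages, by 1.27 log2 units (limma adjusted p = 0.00650), from -0.24 at E9.25 to 1.03 at E10.5. This difference was called in 8 of 10 other settings and lost with either block by replicate number. Without E9.25 Gli3-/- replicate 1 the difference was 1.14 (adjusted p = 0.00618).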

How the results depend on the processing

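Of 524 values of members under other settings, 472 kept their direction and their side of the threshold, 11 lost the call, 16 gained one and 25 changed sign. With 1 library left out these were 389, 5, 5 and 14 of 413. The checks Gli3, Ptch1 and Gli1 are outside these counts, though sign changes of Gli3 are listed below. The calls of Ccnd1 and Cdkn1a at E10.5 held in all of these settings. The tables give TPM without counts, so that the precision of low genes such as Cdkn2c could not be modelled.

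For loss of Gli3 at E9.25, the 20 calls over all genes became 0 with no filter, 36 with the trend over gene span removed, 53 with sample quality weights and 1185 in a single model of all 14 libraries, which called 3 members. At E10.5 the 747 calls became 391 with no filter, 1356 with quality weights and 406 in the single model. For stage, 3 members were called in WT with no filter, and in Gli3-/- 5 with median-of-ratios size factors, 6 with the span trend removed and 5 with quality weights, which called 6520 genes. For the interaction, quality weights called 2 members and 830 genes. The split of calls over all genes moved with scaling at E9.25 (16 higher and 4 lower as deposited, 17 and 13 after quantile normalization), for stage in Gli3-/- (2437 and 1416 against 2342 and 2186) and for the interaction (78 and 270 against 164 and 181).

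The signs that changed belonged to differences that did not pass as reported. With median-of-ratios size factors the WT stage values were -0.28 for Ccnd1 (called), -0.31 for Ccnd3 and -0.26 for Cdk4, and the interactions 0.20 for Ccnd1, 0.00 for Ccnd3 and 0.05 for Mycn. With the span trend removed, the E9.25 values were -0.08 for Ccnd3 and -0.07 for Rb1, the WT stage values -0.21 for Ccnd1, -0.50 for Ccnd3, -0.17 for Cdk4 and -0.23 for Cdk6, and the interactions 0.13 for Ccnd1, 0.10 for Ccnd3, 0.16 for Rb1 and 0.17 for Gli3. With quantile normalization, Ccnd3 was -0.01 at E10.5, Cdk6 -0.08 for stage in WT, Ccnd1 0.06 for stage in Gli3-/-, and the interactions were 0.01 for Ccnd1 and 0.12 for Rb1. With quality weights, Ccnd3 was -0.07 at E10.5, Cdk6 -0.04 for stage in WT, and the interactions were 0.05 for Rb1 and 0.00 for Gli3. The cause was not tested.

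Replicate numbers did not pair the samples: deviations of same-numbered libraries correlated at -0.17 on average at E9.25, at -0.05 at E10.5 by the titles and 0.17 by the numbers of the deposited tables, and at -0.03 and 0.04 between stages. With the replicate block of the titles, 66 genes were called at E9.25, 164 at E10.5, 4699 for stage in WT and 42 for the interaction. With the replicate block that took its numbers from the deposited tables (added once the data had been seen) 66 were called at E9.25, 498 at E10.5, 4699 for stage in WT, 4444 in Gli3-/- and 59 for the interaction. The Cdk6 call at E10.5 was lost with the first block (adjusted p = 0.0697) and kept with the second (0.0186), the Mycn call for stage in WT was lost (0.0551), and both blocks called 0 members for the interaction, where Cdkn1a stood at 1.34 (0.0997) and 1.28 (0.0824). With the first block Ccnd3 was -0.03 at E10.5 and Ccnd1 0.01 for stage in Gli3-/-.

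With 1 library left out, calls over all genes ranged from 2 to 196 at E9.25, 301 to 680 at E10.5, 5139 to 8305 for stage in WT, 2129 to 4326 in Gli3-/- and 150 to 1433 for the interaction. Members called ranged from 0 to 0, 3 to 3, 3 to 5, 3 to 4 and 1 to 3 in that order. Log2 values that crossed 0 ranged from -0.15 to 0.08 (Ccnd1) for stage in Gli3-/-, from -0.01 to 0.14 (Ccnd1), -0.10 to 0.12 (Ccnd3) and -0.21 to 0.71 (Cdk6) for stage in WT, from -0.03 to 0.05 (Ccnd3) and -0.00 to 0.13 (Rb1) at E10.5, and from -0.21 to 0.02 (Ccnd1), -0.02 to 0.11 (Cdk4) and -0.51 to 0.21 (Gli3) for the interaction.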
